A study of Mus musculus with 15 samples.

Results

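The genes described here are 9 members of the kidney's water channel and principal cell program, Aqp1, Aqp2, Aqp3, Aqp4, Aqp6, Aqp7, Aqp11, Avpr2 and Hsd11b2, chosen by name from the 46078 genes of a table of read counts. All 9 passed the filter on low counts that was applied before testing, as did 16330 genes in all over the groups compared. The table came from the podocyte fraction of male C57BL/6J mouse kidneys, cells pulled from digested cortex with anti-nephrin antibodies and magnetic beads after the medulla had been removed. Nephrin is a protein of the podocyte slit diaphragm, and this selection was aimed at the filtering cell of the glomerulus.

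Libraries were compared among 3 groups, named young, aged IgG2a and aged aPD1ab below. Young mice were 4 months old and not injected (n = 5). Aged mice were 21 months old and received weekly intraperitoneal injections of 12 mg/kg for 8 weeks, of either the isotype control antibody IgG2a (clone 2A3; n = 4) or the anti-PD-1 antibody RMP1-14, called aPD1ab (n = 4). The sample titles of the aPD1ab group give 47 days in place of the 8 weeks. Young mice carried no antibody, so age and the injection of IgG2a cannot be told apart in the comparison of those 2 groups. In aged aPD1ab vs young, age, the injections and the block of PD-1 likewise cannot be told apart. The table's 13 columns used here were tied to groups by the numbers printed beside the points of a principal component plot in the study, not by GEO's labels, and 2 further columns without such a number were not used. Replicate numbers below only name columns, and mice are not paired across groups.

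Water crosses kidney epithelia through aquaporins. Aqp1 sits in both membranes of the proximal tubule and thin descending limb and in some vessels. Principal cells of the collecting duct insert Aqp2 into their apical membrane when vasopressin binds the receptor Avpr2 and raises cAMP, and the water leaves through Aqp3 and Aqp4 on the basolateral side. Hsd11b2 in the same cells inactivates glucocorticoids, which leaves the mineralocorticoid receptor to aldosterone. Aqp6 belongs to intercalated cells, Aqp7 is an aquaglyceroporin of the straight proximal tubule, and Aqp11 is an intracellular channel of the proximal tubule.

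Aqp2 and Aqp3 moved together across these libraries, and the 300 bases around their starts are shown for that reason. RefSeq (GRCm38.p6) gave such a window for 7 of the 9 members. Capitals mark matches, on either strand, to 5 short motifs: TGACG (from the cAMP response element), AGATAA, which GATA factors bind, TGGAAA (the core of the tonicity element), TGTTCT (a half-site of steroid receptors) and, for the transcription factor HNF1, the half-site GTTAAT. The Aqp2 window is chr15:99578806-99579105 on the plus strand and the Aqp3 window is chr4:41098134-41098433 on the minus strand, each written 5′ to 3′ in the gene's direction.
Aqp2: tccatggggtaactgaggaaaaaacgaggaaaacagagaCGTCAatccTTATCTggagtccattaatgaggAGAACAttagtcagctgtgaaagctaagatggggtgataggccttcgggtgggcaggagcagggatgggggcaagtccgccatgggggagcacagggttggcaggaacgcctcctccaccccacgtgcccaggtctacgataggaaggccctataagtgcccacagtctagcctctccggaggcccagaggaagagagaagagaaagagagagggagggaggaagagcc
Aqp3: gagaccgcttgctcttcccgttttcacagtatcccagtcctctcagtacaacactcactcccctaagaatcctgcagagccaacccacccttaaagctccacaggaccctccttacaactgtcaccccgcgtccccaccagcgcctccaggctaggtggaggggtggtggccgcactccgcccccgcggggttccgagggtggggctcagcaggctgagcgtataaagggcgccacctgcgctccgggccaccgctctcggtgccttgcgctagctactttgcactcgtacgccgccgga

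In the Aqp2 window the cAMP motif, the GATA motif and the steroid receptor half-site each matched once, all on the minus strand, beginning 211, 202 and 179 bases before the start. The Aqp3 window held none of the 5 motifs. Over 32851 RefSeq windows of this length, 20.8% held TGACG, 11.2% held AGATAA and 19.0% held TGTTCT, while 21.4% held TGGAAA and 7.1% held GTTAAT. A match describes letters in the sequence and says nothing of binding, and a window without a match says nothing of the factor either.

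Libraries held between 19912969 and 32717100 counts, and a gene at 3 counts, taken as the floor, stood at 0.0843 to 0.207 CPM (counts scaled to a common depth after TMM). All 8 podocyte markers were above the floor in every group, but the fraction held much tubule RNA. Summed per kilobase of exon, 13 proximal tubule markers reached 1065 to 16842 CPM and the 8 podocyte markers 61.8 to 289.9 CPM. Kap was the largest part of the proximal tubule sum, averaging 8285 CPM per kilobase in young, 1929 in aged IgG2a and 6375 in aged aPD1ab libraries. Aged IgG2a replicate 1 stood apart from the other libraries of its group. Its proximal tubule markers summed to 7706 CPM, against 1512 to 2366 in the other 3 and 10392 to 15907 in young mice, and 29.3% of its counts were mitochondrially encoded, against 38.7% to 54.9%. That share was 23.1% to 30.4% in young and 20.4% to 38.5% in aged aPD1ab libraries, so by both measures the other 3 aged IgG2a libraries lay outside the range of all the rest. With aPD1ab the same markers ran from 7847 to 22402 CPM, highest in replicate 2. Results that rest on aged IgG2a replicate 1 are given with and without it. Nphs1, which encodes nephrin, averaged 64.6 ± 16 CPM (SD, n = 5) in young, 8.81 ± 7.18 (SD, n = 4) with IgG2a and, with aPD1ab, 27.1 ± 16.7 (SD, n = 4).

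Levels of the members spanned 3 bands when divided by exon length. In young mice Aqp1 led with a mean of 135 ± 21.3 CPM per kilobase (SD, n = 5), followed by Hsd11b2 at 113 ± 49.9, Aqp2 at 77.7 ± 30.1, Aqp3 at 56.0 ± 23.7 and Aqp6 at 35.0 ± 15.7. Aqp1 exceeded Hsd11b2 in only 3 of 5 young libraries, so this pair did not differ beyond its spread, whereas Hsd11b2 exceeded Aqp2 and Aqp2 exceeded Aqp3 in all 5. The lower band held Aqp4 at 1.96 ± 0.671, Aqp7 at 1.60 ± 0.479 and Aqp11 at 1.40 ± 0.220, whose ranges overlapped. Avpr2 was lowest, at 0.257 ± 0.0982 CPM per kilobase, below Aqp11 in every young library.

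In both aged groups the order differed at its top from that in young mice. With IgG2a Aqp2 was first with 155 ± 71.3 CPM per kilobase (SD, n = 4), above Hsd11b2 at 87.7 ± 20.04 in all 4 libraries, and Aqp1 came after Aqp3, at 60.4 ± 13.8. With aPD1ab Aqp2 was again first, at 247 ± 62.1, ahead of Aqp1 at 109 ± 79.7 in all 4 libraries. Aqp1 and Aqp3 did not differ there beyond their spread, Aqp3 being the higher of the pair in 3 of 4 libraries. Hsd11b2 followed at 81.1 ± 15.7, below Aqp3 in all 4.

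**Figure D1:**
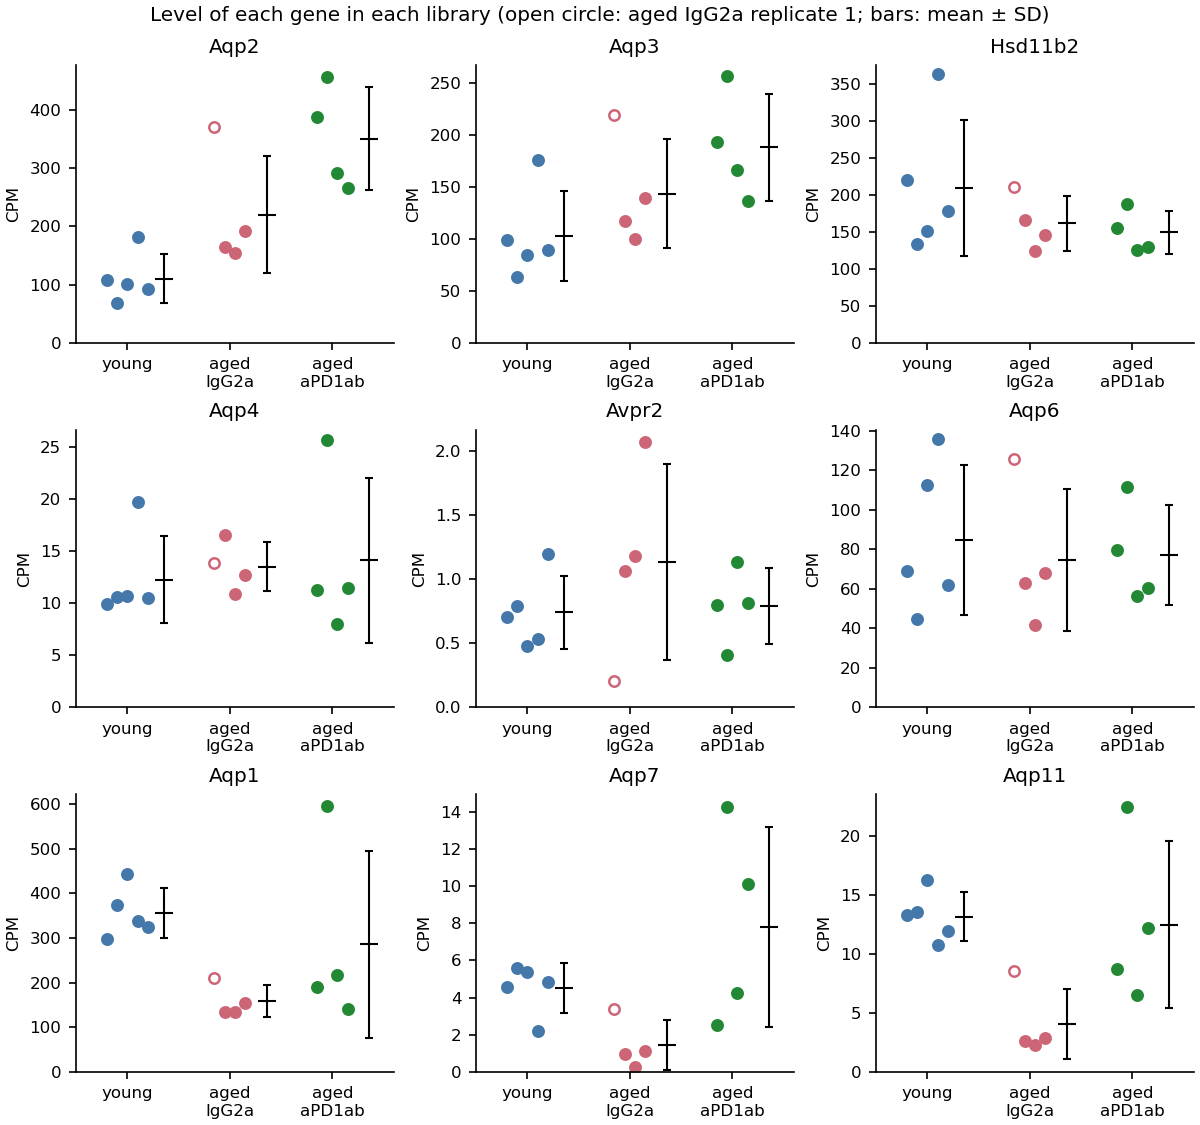
CPM of each of the 9 genes (vertical axes, linear from 0) in the 5 young, 4 aged IgG2a and 4 aged aPD1ab libraries; each circle is 1 library, the open circle is aged IgG2a replicate 1, and bars give the mean and SD. Aqp2 sits between 266 and 457 CPM in aged aPD1ab libraries, above every young library, while Hsd11b2 overlaps across the groups.

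Aqp2, the vasopressin-regulated channel of the apical membrane (ENSMUSG00000023013, GRCm38 chromosome 15, 99579055 to 99584547), was at 107, 68.7, 102, 182 and 91.8 CPM in the 5 young libraries. It was at 369.9, 164, 154 and 192 CPM in the 4 aged IgG2a libraries and at 387, 457, 291 and 266 CPM in the 4 aged aPD1ab libraries. Every aged aPD1ab library lay above every young one, and young replicate 4 was the only young library inside the aged IgG2a range, while the aged IgG2a and aged aPD1ab groups overlapped only through aged IgG2a replicate 1.

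In aged aPD1ab vs young Aqp2 rose 3.201-fold, log2 fold change 1.68 ± 0.27 (SE; edgeR adjusted p = 0.00454). A gene was called here when its adjusted p was under 0.05 and its change over 2-fold. Aqp2 was the only 1 of the 9 members called higher in this comparison, in which 2.10% of all tested genes were called higher and 2.69% lower, and 0 members were called lower. The call held when each of the 9 libraries was left out in turn, with a log2 fold change from 1.52 to 1.93.

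In aged IgG2a vs young the log2 fold change of Aqp2 was 1.05 ± 0.32 (SE; edgeR adjusted p = 0.0486), at the edge of the call. It missed the call without 8 of the 9 libraries taken 1 at a time, all but young replicate 4, and under 4 of 7 other settings, and it was 0.68 (edgeR adjusted p = 0.0632) without aged IgG2a replicate 1. In aged aPD1ab vs aged IgG2a it was 0.67 ± 0.32 (SE; edgeR adjusted p = 0.202), and 1.02 (edgeR adjusted p = 0.0145) without aged IgG2a replicate 1. These comparisons share libraries, so the values stand side by side and do not support each other.

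Aqp3, the basolateral exit for water and glycerol (ENSMUSG00000028435, chromosome 4, 41092722 to 41098183), followed Aqp2 with smaller steps. It was at 98.5, 63.4, 84.7, 176 and 89.4 CPM in young libraries, at 219, 117, 99.6 and 139.6 CPM in aged IgG2a libraries, and at 193, 257, 166 and 137 CPM in aged aPD1ab libraries. Young replicate 4 reached into both aged groups, and without it the young libraries lay below all 8 aged ones. The log2 fold change in aged aPD1ab vs young was 0.89 ± 0.28 (SE; edgeR adjusted p = 0.0448), which is 1.85-fold and under the fold threshold. By adjusted p alone 2 of the 9 members were higher in this comparison, Aqp2 and Aqp3, against 12.4% of all tested genes. For Aqp3 this did not hold without 7 of the 9 libraries taken 1 at a time, where edgeR's adjusted p reached 0.0933 and the log2 fold change went down to 0.70, nor under 2 of 7 other settings. Without young replicate 4 the change was 1.17 (edgeR adjusted p = 0.0116) and without aged aPD1ab replicate 4 it was 1.02 (edgeR adjusted p = 0.0475), and both were calls. It was 0.54 (edgeR adjusted p = 0.227) in aged IgG2a vs young and 0.39 (edgeR adjusted p = 0.386) between the aged groups.

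Hsd11b2, the cortisol- and corticosterone-inactivating dehydrogenase (ENSMUSG00000031891, chromosome 8, 105518755 to 105523988), did not follow them. It was at 219.6, 133, 151, 362 and 178 CPM in young libraries. The aged IgG2a libraries held 210.3, 166, 124 and 146 CPM, and the aged aPD1ab libraries 155, 188, 125 and 129 CPM. The 3 groups overlapped throughout, and young replicate 4 was again the highest library. Its log2 fold changes were -0.31 (edgeR adjusted p = 0.466) with IgG2a and -0.47 (edgeR adjusted p = 0.243) in aged aPD1ab vs young, and -0.12 (edgeR adjusted p = 0.74) between the aged groups.

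**Figure D2:**
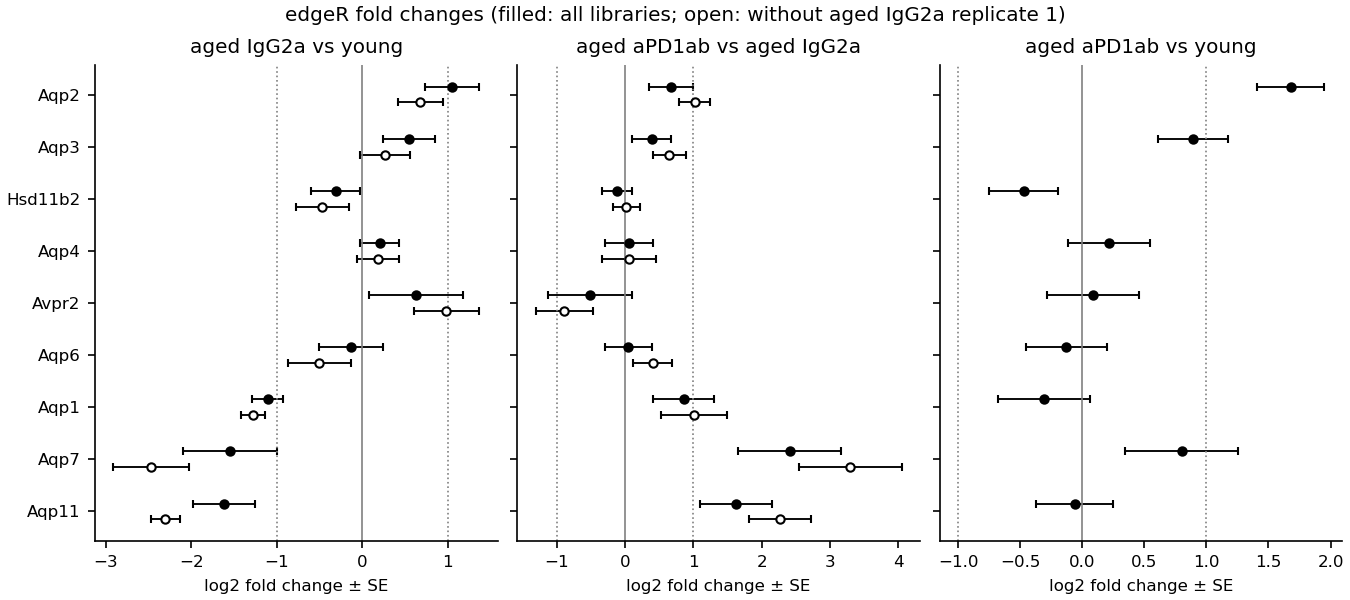
Log2 fold changes (horizontal axes) of the 9 genes in the 3 comparisons from edgeR, with standard errors as bars; filled circles use all libraries, open circles leave out aged IgG2a replicate 1, and dotted lines mark 2-fold. Aqp2 stands at 1.68 in aged aPD1ab vs young, while Aqp1, Aqp7 and Aqp11 stand at -1.11 to -1.62 in aged IgG2a vs young.

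Because young replicate 4 and aged IgG2a replicate 1 were high for several collecting duct genes at once, the members of the principal cell were also set against each other within each library. These ratios were chosen after the values were seen, they need no normalization, and they are given as a description without a test. The ratio of Aqp2 to Hsd11b2 counts was 0.488, 0.518, 0.672, 0.503 and 0.516 in young libraries. It was 1.76, 0.992, 1.25 and 1.32 in aged IgG2a libraries and 2.49, 2.44, 2.33 and 2.07 in aged aPD1ab libraries. The 3 groups did not overlap. Young replicate 4 was inside the range of its group and aged IgG2a replicate 1, the highest of its own, was still below every aged aPD1ab library.

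Aqp3 to Hsd11b2 was ordered in the same way, with a mean ratio of 0.495 ± 0.0412 (SD, n = 5) in young, 0.877 ± 0.150 (SD, n = 4) with IgG2a and, with aPD1ab, 1.25 ± 0.138 (SD, n = 4). The lowest aged aPD1ab library, at 1.06, was just above aged IgG2a replicate 1, at 1.04. Aqp2 to Aqp3 was ordered likewise, from 1.09 ± 0.0695 in young through 1.505 ± 0.143 with IgG2a to 1.87 ± 0.1249 with aPD1ab. These 3 ratios did not overlap between groups. Aqp2 to Hsd11b2 is Aqp2 to Aqp3 times Aqp3 to Hsd11b2 in each library, so its order follows from theirs and adds nothing to them. Of the 10 pairs of the 5 principal cell members, 2 more, Aqp2 to Aqp4 and Aqp3 to Aqp4, were apart in aged aPD1ab vs young alone, and the other 5 overlapped in all 3 comparisons.

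A background for Aqp2 came from its ratio to every one of 15704 genes. In aged aPD1ab vs aged IgG2a the ratio was higher without overlap for 5.74% of them, and for 2 of the 4 other principal cell members, Aqp3 and Hsd11b2. In aged IgG2a vs young it was so for 35.7% of genes and the same 2 of 4 members, and in aged aPD1ab vs young for 70.5% of genes and 3 of 4 members. Against young mice these shares of the members are not far from the background. The ratio of Aqp3 to a gene was higher without overlap for 1.84% of genes in aged aPD1ab vs aged IgG2a, 13.3% in aged IgG2a vs young and 21.6% in aged aPD1ab vs young.

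**Figure D3:**
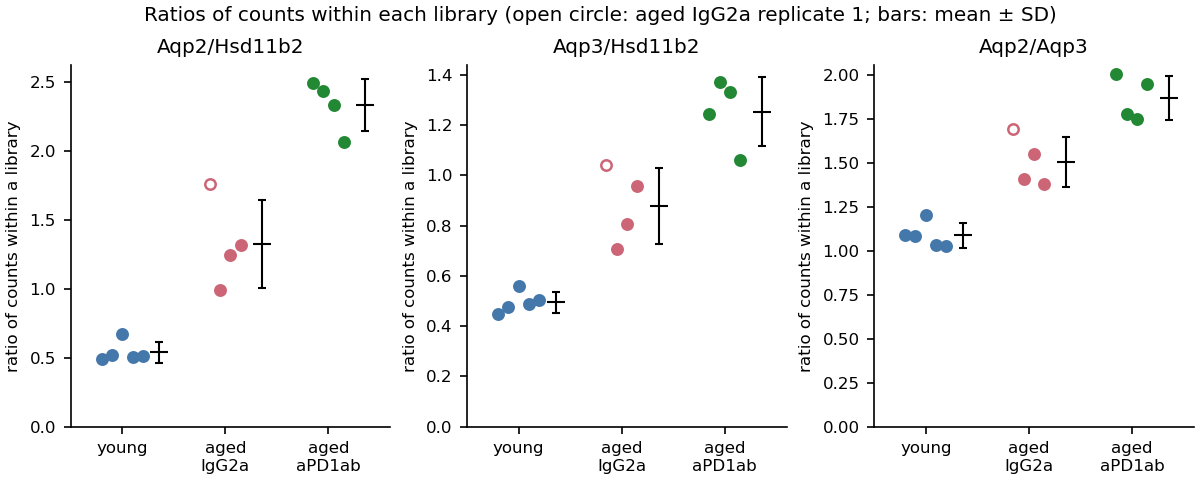
Ratios of read counts within each library (vertical axes, linear from 0) for Aqp2 to Hsd11b2, Aqp3 to Hsd11b2 and Aqp2 to Aqp3; circles are libraries, the open circle is aged IgG2a replicate 1, and bars give the mean and SD. Groups step up from young to aged IgG2a to aged aPD1ab with no overlap, Aqp2 to Hsd11b2 from 0.539 to 1.33 to 2.33. Aqp2 to Hsd11b2 is the product of the other ratios shown.

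The other markers of principal cells gave a further yardstick. They were Scnn1b and Scnn1g, subunits of the epithelial sodium channel, the sodium pump regulator Fxyd4, the transcription factors Gata3, Elf5 and Tfcp2l1, the peptide gene Apela and Npnt, a matrix protein that podocytes also express. Their median log2 fold change was -0.24 with IgG2a and -0.28 in aged aPD1ab vs young, beside 0.038 and 0.017 over all genes. Npnt, named after its value was seen, was the only 1 of the 8 called in either, at -1.17 (edgeR adjusted p = 0.0223) in aged IgG2a vs young, so the sums below leave it out. Whether the RNA of the other genes came from principal cells alone was not tested.

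Per 100 counts of the other 7 markers, Aqp2 stood at 15.5 ± 1.60 (SD, n = 5) in young, 42.9 ± 5.83 (SD, n = 4) with IgG2a and, with aPD1ab, 75.3 ± 15.2 (SD, n = 4). The ranges were 12.99 to 17.1, 38.1 to 51.2 and 61.7 to 96.3, and they did not overlap. Hsd11b2 was at 29.1 ± 3.60, 32.96 ± 3.93 and 32.2 ± 4.96 on the same scale, with overlap between all groups. Aqp3 went from 14.3 ± 1.58 to 28.5 ± 2.51 and 40.5 ± 9.62. Its aged groups lay side by side, reaching 30.9 with IgG2a and beginning at 31.7 with aPD1ab, and with Npnt in the sum they overlapped, from 22.2 to 26.2 against 25.3 to 41.5. By counts this sum is mostly 1 gene, Tfcp2l1, which made up 63.6% to 69.3% of it in young, 55.0% to 64.6% in aged IgG2a and 57.2% to 60.8% in aged aPD1ab libraries and averaged 461 ± 140, 303 ± 110 and 273 ± 25.9 CPM. Without it, Aqp2 stood at 41.7 to 53.6, 84.7 to 145 and 157 to 225 per 100 counts of the other 6 markers, again apart, while Aqp3 overlapped between the aged groups, at 60.3 to 85.7 and 80.5 to 127. In bulk libraries fewer cells of a type and less RNA per cell cannot be told apart, and whether different stretches of the collecting duct were sampled in the groups was not tested.

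**Figure D4:**
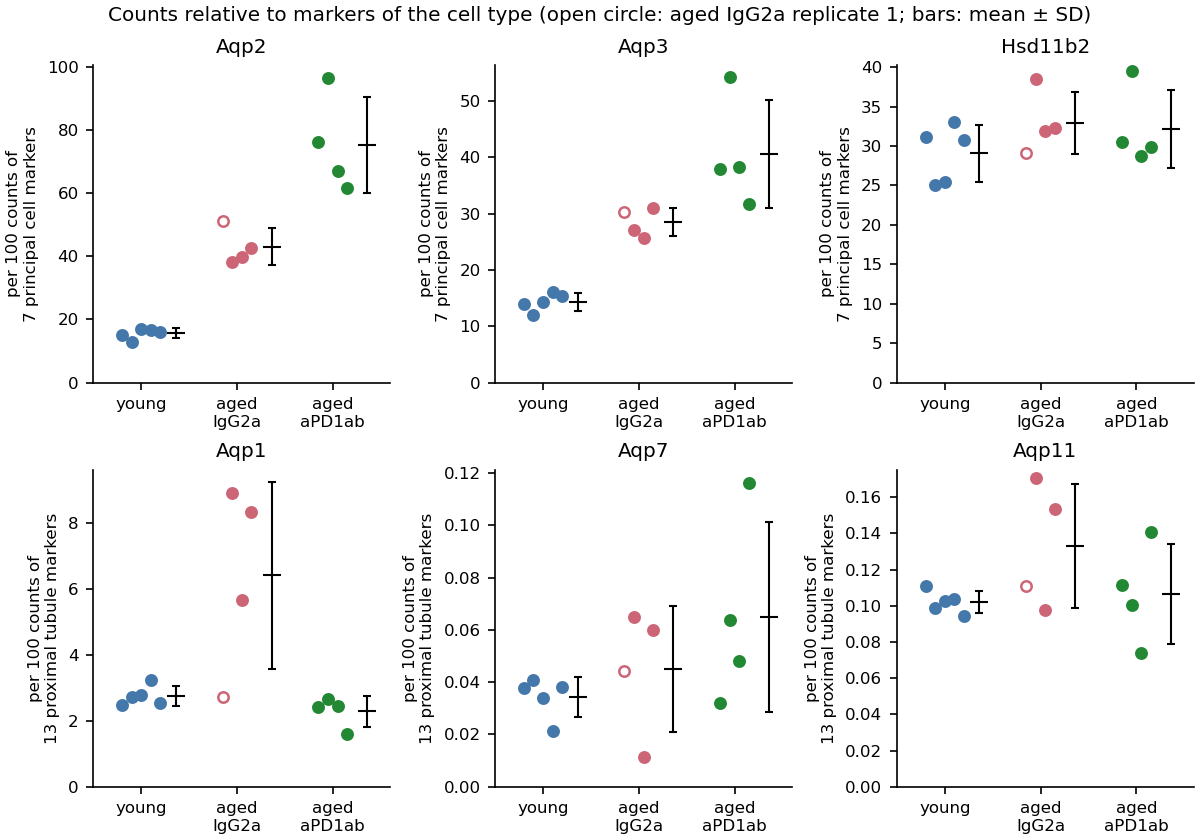
Counts of a gene per 100 counts of markers of its cell type in the same library (vertical axes, linear from 0), with 7 principal cell markers for Aqp2, Aqp3 and Hsd11b2 and 13 proximal tubule markers for Aqp1, Aqp7 and Aqp11; circles are libraries, the open circle is aged IgG2a replicate 1, and bars give the mean and SD. Aqp2 rises from 15.5 to 42.9 and 75.3 while Hsd11b2 stays between 25.1 and 39.5, and Aqp1 is high, at 5.69 to 8.92, in 3 aged IgG2a libraries.

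Aqp4 and Avpr2 were low in this fraction. Aqp4, the mercury-insensitive basolateral channel (ENSMUSG00000024411), was at 9.87, 10.5, 10.6, 19.7 and 10.4 CPM in young libraries, between 10.9 and 16.5 CPM in aged IgG2a libraries and between 7.94 and 25.6 CPM in aged aPD1ab libraries. Its groups overlapped, with adjusted p from edgeR of 0.541, 0.927 and 0.674 in the 3 comparisons. Avpr2, the vasopressin V2 receptor (ENSMUSG00000031390, chromosome X, 73892102 to 73895502), rested on 7 to 32 counts per library. It was between 0.476 and 1.19 CPM in young, 0.205 and 2.07 CPM in aged IgG2a and 0.407 and 1.13 CPM in aged aPD1ab libraries, and it was lowest in aged IgG2a replicate 1. Avpr2 lies on the opposite strand to 2 overlapping genes, L1cam at 43.1 to 100.3 CPM and Arhgap4 at 24.3 to 91.4 CPM. How the counting used strand is not given in the sources used here, so its few counts cannot be told apart from theirs.

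Aqp6, an anion-permeable channel held in vesicles of acid-secreting intercalated cells (ENSMUSG00000043144, chromosome 15, 99601400 to 99605477), was at 68.9, 44.7, 113, 136 and 61.9 CPM in young libraries. It was at 126, 63.1, 41.9 and 67.9 CPM in aged IgG2a and at 79.9, 112, 56.2 and 60.5 CPM in aged aPD1ab libraries. The groups overlapped almost wholly, and its adjusted p from edgeR was 0.826, 0.94 and 0.809 in the 3 comparisons. Per 100 counts of 7 intercalated cell markers it averaged 15.9 ± 4.00 (SD, n = 5), 22.1 ± 5.80 (SD, n = 4) and 25.1 ± 5.16 (SD, n = 4) in the 3 groups, young first and aPD1ab last, again with overlap. Those 7 markers were all lower in both aged groups than in young mice, by a median log2 fold change of -0.58 with IgG2a and -0.83 with aPD1ab. Of them 0 and 1 were called lower, beside 4.59% and 2.69% of all genes.

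The aquaporins of the proximal tubule, Aqp1, Aqp7 and Aqp11, had negative log2 fold changes in aged IgG2a vs young. In aged aPD1ab vs young they were at -0.30, 0.80 and -0.061, and 0 were called. Of the 9 members, 2 were called lower in aged IgG2a vs young, Aqp1 and Aqp11, beside 4.59% of all genes, and 1 was called higher, Aqp2, beside 3.89%. Without aged IgG2a replicate 1, 3 were called lower, Aqp1, Aqp7 and Aqp11, beside 8.92% of genes, and 0 were called higher, beside 8.16%. The call of Aqp7 is not independent of the filter, as given below.

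Aqp1, the constitutive water channel (ENSMUSG00000004655, chromosome 6, 55336432 to 55348555), was at 298, 374, 443, 338 and 325 CPM in young libraries. It was at 211, 135, 134 and 154 CPM in aged IgG2a libraries, all below the young ones. The aged aPD1ab libraries held 191, 596, 217 and 140.2 CPM, which left 3 below the young range and replicate 2 above it. Aqp1 fell 2.15-fold in aged IgG2a vs young, log2 fold change -1.11 ± 0.18 (SE; edgeR adjusted p = 0.00858), and it was called without each of the 9 libraries in turn. It was -0.30 ± 0.37 (SE; edgeR adjusted p = 0.582) in aged aPD1ab vs young, and 0.86 ± 0.44 (SE; edgeR adjusted p = 0.235) between the aged groups. Without aged aPD1ab replicate 2 the first of these was -0.95 (edgeR adjusted p = 0.00744) and the second 0.18 (edgeR adjusted p = 0.682).

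Aqp11, found in the endoplasmic reticulum (ENSMUSG00000042797, chromosome 7, 97724006 to 97738289), was at 13.3, 13.6, 16.3, 10.8 and 12.0 CPM in young libraries. It was at 8.53, 2.58, 2.32 and 2.83 CPM in aged IgG2a and at 8.73, 22.5, 6.52 and 12.3 CPM in aged aPD1ab libraries. Aged IgG2a replicate 1 was apart from the other 3, yet still under every young library. The log2 fold change in aged IgG2a vs young was -1.62 ± 0.37 (SE; edgeR adjusted p = 0.022). It missed the call, at an adjusted p of up to 0.0667 from edgeR, without young replicate 3 or any of aged IgG2a replicates 2, 3 and 4, and was -2.30 (edgeR adjusted p = 7.01e-06) without aged IgG2a replicate 1.

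Aqp7, which carries glycerol and water (ENSMUSG00000028427, chromosome 4, 41033074 to 41048139), was at 4.56, 5.59, 5.40, 2.21 and 4.85 CPM in young libraries. It was at 3.40, 0.981, 0.269 and 1.11 CPM in aged IgG2a and at 2.52, 14.2, 4.25 and 10.1 CPM in aged aPD1ab libraries. Aged IgG2a replicate 1 alone of its group fell within the young range. Adipocytes also express Aqp7, and of 5 adipocyte markers Adipoq, Plin1, Cidec and Lep were at the floor in all 13 libraries. The log2 fold change was -1.54 ± 0.55 (SE; edgeR adjusted p = 0.0764) in aged IgG2a vs young, and -2.47 (edgeR adjusted p = 0.00122) without aged IgG2a replicate 1. Aqp7 had 24, 5 and 16 counts in aged IgG2a replicates 2, 3 and 4. In both comparisons with this group it passed the filter only through its high group. Its calls there are not independent of the filter and are not taken as support.

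In aged aPD1ab vs aged IgG2a the proximal tubule members had positive log2 fold changes, that of Aqp1 falling to 0.18 without aged aPD1ab replicate 2. However, 0 of the 9 members and 0% of all 15530 genes were called by edgeR with every library in the fit. There the lowest adjusted p was 0.102 and 4341 genes had an unadjusted p under 0.05. DESeq2 called 1105 genes and limma voom with sample weights 2329, Aqp7 and Aqp11 among them in both. The log2 fold change of Aqp7 was 2.41 ± 0.75 (SE; edgeR adjusted p = 0.115) and that of Aqp11 was 1.62 ± 0.53 (SE; edgeR adjusted p = 0.119). Without aged IgG2a replicate 1 they were 3.30 (edgeR adjusted p = 0.016) and 2.27 (edgeR adjusted p = 0.0111). Together with Aqp2 that made 3 of 9 members called higher, beside 8.46% of genes, and 0 called lower, beside 5.81%. Aqp7 passed the filter here only through its high group, so its call adds no support to that count.

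Proximal tubule markers moved with these members, as did those of other cells. All 13 markers were lower with IgG2a than in the young group, 11 of them called, with a median log2 fold change of -1.87, and all 13 were higher with aPD1ab than with IgG2a, with a median of 1.75 and 0 called, or 2.57 and 12 called without aged IgG2a replicate 1. Slc34a1, the sodium-phosphate cotransporter of that segment, averaged 2636 ± 622 CPM (SD, n = 5) in young, 707 ± 573 (SD, n = 4) with IgG2a and, with aPD1ab, 2950 ± 1612 (SD, n = 4). In the opposite direction, all 6 macrophage markers were higher with IgG2a than in young mice, 5 of them called, with a median of 1.37. All 6 were lower with aPD1ab than with IgG2a, with a median of -0.90 and 0 called. Without aged IgG2a replicate 1 these medians were 1.57, with 6 called, and -1.17, with 5 called. Of the 5 B and plasma cell markers Ighm (3.94, edgeR adjusted p = 0.00144) and Jchain (3.78, edgeR adjusted p = 0.00243) were called higher in aged IgG2a vs young. The rest of that list was not called, with log2 fold changes from -0.056 to 0.75. Of the 8 podocyte markers 6 were called lower and 1 higher in aged IgG2a vs young. The part of all these markers in the members' values was not tested. By counts the most abundant of the 13 proximal tubule markers were Kap, which averaged 5858, 1364 and 4507 CPM in the 3 groups, and Slc34a1. Per 100 counts of the 13 markers, Aqp11 averaged 0.102 ± 0.00617, 0.133 ± 0.0343 and 0.106 ± 0.0277 in the 3 groups and overlapped between them. Aqp7 likewise overlapped, at 0.0344 ± 0.00770, 0.0451 ± 0.0241 and 0.0650 ± 0.0364.

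Aqp1 did not keep pace with the markers. Per 100 counts of them it was 2.47, 2.72, 2.79, 3.25 and 2.56 in young libraries and 2.43, 2.66, 2.45 and 1.61 in aged aPD1ab libraries. Aged IgG2a replicate 1, at 2.74, was among these values, while the other 3 aged IgG2a libraries were at 8.92, 5.69 and 8.35. In those 3 libraries Aqp1 was thus lower than in young mice in CPM and higher per proximal tubule marker. Endothelial markers, of vessels that may also express Aqp1, summed to 674.98 to 827 CPM in aged IgG2a and 871 to 1459 CPM in young libraries, while erythroid markers, Aqp1 being also the water channel of red cells, summed to 103 to 198 CPM and 25.1 to 147 CPM. The part of either in this was not tested.

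The remaining water channels were scarce. Of Mip, Aqp5, Aqp8, Aqp9 and Aqp12, 2 or 3 passed the filter on low counts in a comparison. Aqp5, an apical channel best known from secretory glands, had 4, 2, 2, 10 and 0 counts in young libraries. It had 27, 18, 14 and 4 counts in aged IgG2a and 28, 42, 23 and 22 counts in aged aPD1ab libraries. All aged aPD1ab libraries were above all young ones, and Aqp5 was called higher there (edgeR adjusted p = 0.00811). In that comparison it passed the filter only through its high group, so the call is not independent of the filter and is not taken as support. Aqp8 averaged 0.778 ± 0.416 CPM (SD, n = 5) in young, 0.236 ± 0.300 (SD, n = 4) with IgG2a and, with aPD1ab, 0.999 ± 0.750 (SD, n = 4), and Aqp9 0.868 ± 0.296, 1.69 ± 1.19 and 0.659 ± 0.390. Neither was called with every library in the fit. Aqp8 had 10 to 35 counts in young libraries and 4, 2 and 0 in aged IgG2a replicates 2, 3 and 4, and so passed the filter there only through its high group. Without aged IgG2a replicate 1 Aqp8 was called lower in aged IgG2a vs young (-2.81, edgeR adjusted p = 0.00881) and higher in aged aPD1ab vs aged IgG2a (3.24, edgeR adjusted p = 0.0288), and Aqp9 was called in the opposite directions (1.40 and -1.78, edgeR adjusted p = 0.00989 and 0.0301).

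Upstream and downstream of the channels, most genes stayed under the threshold. Over all tested genes, 3.89% were called higher and 4.59% lower in aged IgG2a vs young. In aged aPD1ab vs young these shares were 2.10% and 2.69%, and 0% were called between the aged groups. Of 22 genes of vasopressin and cAMP signaling and Aqp2 trafficking, 0 were called in any of the 3 comparisons, and their median log2 fold changes were 0.0064, -0.011 and -0.0016 for aged IgG2a vs young, aged aPD1ab vs aged IgG2a and aged aPD1ab vs young. Among its most abundant genes, Adcy6, an adenylyl cyclase that answers vasopressin, averaged 163 ± 29.4 CPM (SD, n = 5), 113 ± 43.6 (SD, n = 4) and 127 ± 23.3 (SD, n = 4) in the 3 groups, young first and aPD1ab last. Prkar1a, a regulatory subunit of protein kinase A, averaged 216 ± 20.6, 207 ± 23.9 and 223 ± 8.05 CPM. Ezr, a linker of membrane proteins to actin, averaged 322 ± 16.02, 286 ± 87.0 and 404 ± 78.0 CPM. Without aged IgG2a replicate 1, 2 of the 22 were called lower in aged IgG2a vs young, beside 8.92% of all genes, and 1 higher in aged aPD1ab vs aged IgG2a, beside 8.46%, shares close to or under the background.

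Of 15 genes of the aldosterone response and sodium transport, 1 was called, lower in aged IgG2a vs young, beside 4.59% of all genes. It was Prss8, the protease prostasin that activates the sodium channel, at -1.13 (edgeR adjusted p = 0.0244), named after its value was seen. The medians of the list were -0.21, 0.010 and -0.22 in the 3 comparisons. Without aged IgG2a replicate 1, 2 of the 15 were called lower in aged IgG2a vs young and 1 higher in aged aPD1ab vs aged IgG2a, beside the same 8.92% and 8.46% of all genes. Klk1, tissue kallikrein of the connecting tubule, averaged 2553 ± 496 CPM (SD, n = 5) in young, 1407 ± 323 (SD, n = 4) with IgG2a and, with aPD1ab, 1431 ± 422 (SD, n = 4), lower in both aged groups at an adjusted p under the threshold (0.0406 and 0.0296 from edgeR) but by less than 2-fold. Atp1b1, the beta subunit of the sodium pump, averaged 1503 ± 276 CPM in young, 1249 ± 475 with IgG2a and 1339 ± 205 with aPD1ab.

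Of 7 genes of urea transport and the response to tonicity, 1 was called, Slc6a12, the betaine carrier, also named after its values were seen. It was higher in both aged groups than in young mice, by 1.37 (edgeR adjusted p = 0.016) with IgG2a and 1.40 (edgeR adjusted p = 0.0164) with aPD1ab on the log2 scale. Over all genes 3.89% and 2.10% were called higher in these comparisons. Nfat5, the transcription factor that drives Slc6a12 under hypertonic conditions, averaged 112 ± 17.7 CPM (SD, n = 5) in young, 92.8 ± 11.9 (SD, n = 4) with IgG2a and, with aPD1ab, 70.7 ± 6.86 (SD, n = 4). In the last group it was lower than in young mice by a log2 difference of 0.65 (edgeR adjusted p = 0.00808), under 2-fold. The inositol carrier Slc5a3 averaged 133 ± 41.1, 109 ± 42.8 and 99.6 ± 35.5 CPM and the taurine carrier Slc6a6 352 ± 22.9, 299 ± 47.1 and 272 ± 70.8 CPM, neither called. Slc14a1, the urea transporter of red cells and vasa recta, was called lower in aged aPD1ab vs aged IgG2a without aged IgG2a replicate 1, at -1.53 (edgeR adjusted p = 0.0171), the only 1 of the 7 called there, beside 5.81% of all genes, and was at -1.23 (edgeR adjusted p = 0.141) with it. It too was named after its values were seen. In aged IgG2a vs young Slc14a2, the urea transporter of the inner medulla, was not called, with -0.69 as its log2 difference (edgeR adjusted p = 0.162).

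Among 16329 genes, 4 of the 5 most like Aqp2 over the 13 libraries by Pearson's r of log2 CPM were Grem1, at 0.974, Aqp3, at 0.950, Ppp5c, at 0.937, and Pappa, at 0.894. For Aqp1 the 5 were Slc52a3, at 0.970, Galns, at 0.957, Arsg, at 0.954, Tnfrsf21, at 0.953, and Chst11, at 0.952. Grem1 encodes a secreted antagonist of bone morphogenetic proteins and Slc52a3 a riboflavin transporter. The libraries fall into 3 groups and share the RNA of several cell types, so these values describe likeness and carry no test.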

How the data were processed

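Reads of the podocyte fractions were deposited by the authors as whole-number counts per Ensembl gene, not normalized. The submitters' processing notes name HISAT2, featureCounts and mm10 (GRCm38). Versions and the strand setting are not given in the sources used here. Symbols and positions came from GENCODE M21 (GRCm38) and were found for 45229 of 46078 genes. Of 15 columns, 2 were not used.

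R 4.3.3 with edgeR 4.0.16 fitted each pair of groups alone by the robust quasi-likelihood method, with TMM normalization, filterByExpr and Benjamini-Hochberg adjustment over all genes. Genes were called at more than 2-fold with adjusted p below 0.05. Standard errors are the log2 fold change over the root of F. The fit was also run on simulated counts, with the same spread set for every gene and no library set apart. That run does not cover libraries that differ within a group as these do. Alternatives used limma 3.58.1 and DESeq2 1.42.0. P-values measure the spread between libraries, and floors cover counting error only.

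The members and gene lists were chosen with earlier results of these data known. Named genes were the 9 members, the 3 most abundant of each of 4 pathway lists, Nphs1, Slc34a1 and the 5 genes most like Aqp1 and Aqp2. Of the genes named by this rule, 2 are not reported here. Slc14a1, Slc14a2, Npnt, Prss8, Slc6a12, Tfcp2l1, Ighm, Jchain and Kap were added after their values were seen, as were all ratios.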

Additional observations from a re-analysis of the deposited data

Results flagged for a closer look

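In 27 sets of libraries (9 genes in 3 groups) the highest or lowest library was compared with the rest by Dixon's criterion, which chance meets in about 1 set in 20. It was met by 3. Aqp1 stood at 596 CPM in aged aPD1ab replicate 2, with 140.2 to 217 in the other 3 libraries of its group. This library also had the highest proximal tubule markers, and per 100 counts of those markers its Aqp1, at 2.66, was close to the others. Aqp4 stood at 19.7 CPM in young replicate 4, with 9.87 to 10.6 in the other 4, and this library was also the highest young one for Aqp2, Aqp3, Aqp6 and Hsd11b2. Aqp11 stood at 8.53 CPM in aged IgG2a replicate 1, with 2.32 to 2.83 in the other 3, and the proximal tubule markers of that library were likewise above the rest of its group. The part of these markers in the values was not tested.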

How the results depend on the processing

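The fall of Aqp1 in aged IgG2a-injected compared with young mice and the rise of Aqp2 in aged aPD1ab-injected compared with young mice were called under all 7 alternatives and without each library in turn. Of the 7, the setting with no fold threshold uses the same fit and could not lose a call. In aged IgG2a vs young the call of Aqp2 was lost under 4 of the 7, with adjusted p from edgeR up to 0.0763, and Aqp7 was called under 2, DESeq2 and limma voom. Calls of Aqp7 in the comparisons with aged IgG2a are not independent of the filter. Ratios of counts do not depend on the normalization. With every gene counted, aged IgG2a vs young gave 1353 calls, 2484 with limma voom and 2780 with no fold threshold. Aged aPD1ab vs aged IgG2a gave 0, but 1105 with DESeq2, 2329 with limma voom and 1117 with 1 fit of all 3 groups, each with 2 members, Aqp7 and Aqp11. Aged aPD1ab vs young gave 766, and 3578 with no fold threshold, with 2 members. With 1 library left out these counts ran from 389 to 2770, from 0 to 2251 and from 498 to 942, and the members called from 1 to 3, from 0 to 3 and from 1 to 2. The most calls in the first 2 comparisons came without aged IgG2a replicate 1.

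Directions of uncalled genes turned as follows, on the log2 scale. In aged aPD1ab vs aged IgG2a, Klk1 was -0.010 with RLE factors and DESeq2 and -0.0090 with no filter, Aqp4 -0.20 and Slc5a3 0.031 with limma voom. In aged aPD1ab vs young, Slc34a1 was -0.024 with limma voom. With 1 library left out, aged IgG2a vs young ran from -0.50 to 0.11 for Aqp6 and -0.094 to 0.052 for Prkar1a. Aged aPD1ab vs aged IgG2a ran from -0.21 to 0.40 for Aqp6, -0.27 to 0.018 for Hsd11b2, -0.36 to 0.15 for Slc5a3, -0.14 to 0.15 for Klk1, -0.016 to 0.38 for Atp1b1 and -0.42 to 0.26 for Aqp4. Aged aPD1ab vs young ran from -0.36 to 0.10 for Aqp6, -0.24 to 0.45 for Aqp4, -0.50 to 0.14 for Aqp11, -0.11 to 0.32 for Avpr2, -0.18 to 0.73 for Aqp8 and -0.22 to 0.37 for Slc34a1. The cause was not tested. No paired analysis was possible because the columns carry no replicate number that pairs mice across groups. Avpr2 and the scarce aquaporins rest on few counts.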
